A study of Mus musculus with 12 samples.

Results

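The 43 genes described here encode methyltransferases that use S-adenosylmethionine as their methyl donor: 32 of the KMT and SETD families and their relatives, most of which methylate lysines of histones, 8 arginine methyltransferases and 3 DNA methyltransferases. They were chosen by gene name from the 52459 genes of the count table, and all 43 passed the filter on low counts that left 16218 genes for testing. The RNA came from γδ and CD4+ T cells sorted from mice for a study of steatohepatitis, in which a fatty liver becomes inflamed. From 7 weeks of age the mice received, for 6 weeks, either a control diet or one deficient in methionine and choline (MCD). There were 12 libraries, 2 in each of 6 groups: γδ T cells from C57BL/6 wild-type animals on the control diet (replicates 6 and 7) or the MCD diet (replicates 2 and 4), CD4+ T cells of wild-type C57BL/6 mice on the control diet (2 and 3) or the MCD diet (1 and 3), and CD4+ T cells of γδTCR-/- mice, called knockout below, on the control diet (1 and 2) or the MCD diet (1 and 2). The labels name no tissue, do not say which gene the knockout removes or whether cells of several mice were pooled, and do not say that replicates are separate mice, so p-values measure only the spread between these samples. The title of γδ MCD replicate 2 carries a second sample code, which is also the code of wild-type CD4+ MCD replicate 1. The labels do not say whether these libraries share a mouse, and the fit held no term for it.

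Methyl groups for these enzymes come from S-adenosylmethionine, which cells make from methionine, and the by-product S-adenosylhomocysteine inhibits the transfer. Histone lysine methylation can go with open or closed chromatin, depending on the residue: the KMT2 enzymes act on lysine 4 of histone H3, the NSD enzymes and SETD2 on lysine 36, EZH1 and EZH2 on lysine 27, SUV39H, SETDB and EHMT enzymes on lysine 9, DOT1L on lysine 79, and the KMT5 enzymes on lysine 20 of histone H4. In T cells, EZH2 and the DNA methyltransferases are known for holding lineage genes silent during differentiation, and arginine methyltransferases modify histones and splicing and signalling proteins.

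Depth was uneven. Total counts per library were 17035638 to 23203603, of which 40.8% to 56.8% came from mitochondrial genes. Genes with at least 10 counts numbered 8989 and 10125 in the γδ MCD libraries and 11903 to 13402 in the other 10. Depending on the library, 3 counts were worth 0.13 to 0.248 CPM (counts-per-million, scaled by the trimmed mean of M-values, TMM). T cell markers summed to 1872 to 3646 CPM in every library, Cd4 averaged 691 to 822 CPM in the wild-type CD4+ groups and 0.996 to 2.75 CPM in the γδ groups, and the δ-chain gene Trdc did the reverse, with 580 and 690 CPM in the γδ groups and 1.52 and 1.76 CPM in the wild-type CD4+ groups. The labels' cell types were thus visible in their defining genes. Markers of other cells moved with the groups too: 15 macrophage and Kupffer genes summed to 979 and 1862 CPM in γδ control, 1750 and 2485 CPM in γδ MCD and 17.8 to 69.7 CPM in CD4+ libraries. The 15 neutrophil and monocyte genes summed to 355 and 564 CPM, 669 and 879 CPM, and 42.4 to 193 CPM in the same order, and 16 sinusoidal endothelial genes to 824 and 1611 CPM in γδ control, 143 and 147 CPM in γδ MCD and 79.4 to 174 CPM in CD4+ libraries. The 18 hepatocyte genes summed to 104 and 527 CPM in γδ MCD, 50.4 and 82.5 CPM in γδ control and 39.2 to 142 CPM in CD4+ libraries, and of 12 tested between γδ and wild-type CD4+ T cells on the MCD diet 7 had an unadjusted p under 0.05, all higher in γδ, and 1 passed. The 15 B and plasma cell genes summed to 299 and 539 CPM in γδ MCD, 689 and 697 CPM in γδ control and 228 to 689 CPM in CD4+ libraries. In the γδ MCD group, 8 hepatocyte genes, Apoa1 and Ttr among them, the endothelial genes Kdr, Oit3, Tek, Lyve1 and Flt4 and the Kupffer cell genes Clec4f and Timd4 were at 0 in both libraries. The part of these cells in the results below was not tested, and in sorted bulk samples fewer cells of a type and less RNA per cell cannot be told apart.

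Levels were compared between genes per length, in the authors' deposited FPKM (fragments per kilobase of gene, scaled for depth). The KMT and SETD class dominated, with 311 to 448 FPKM summed over its 32 genes per library, against 16.2 to 32.6 FPKM over the 8 arginine and 15.3 to 31.7 FPKM over the 3 DNA methyltransferases. Over all libraries these sums overlapped between cell types in all 3 classes. On the control diet alone the KMT and SETD sums did not, with 311 and 371 FPKM in γδ and 385 and 395 FPKM in wild-type CD4+ T cells. On the MCD diet they were 421 and 429 FPKM in γδ and 406 and 448 FPKM in wild-type CD4+ T cells. The highest mean level over the 12 libraries was that of Kmt2e, a relative of the lysine 4 enzymes that is thought to bind chromatin rather than methylate it, at 67.5 FPKM (55.8 to 83.5 per library). Kmt2a followed at 38.2 FPKM (15.5 to 54.4) and Nsd3, a lysine 36 enzyme, at 34.0 FPKM (28.2 to 40.3). The ranges of Kmt2a and Nsd3 overlap, and so do those of Nsd3 and Kmt5a, the next in order at 30.3 FPKM (12.2 to 82.5). At the low end stood Prmt2 at 0.434, Smyd5 at 0.282 and Smyd2 at 0.209 FPKM, each near or at 0 in at least 1 library. Kmt2e shares 972 exonic bases with Srpk2 and Carm1 shares 1025 with Yipf2, and whether the counting used strand is not given in the sources used here, so reads there cannot be assigned with certainty. In all, 23 of the 43 genes share no exonic base with another annotated gene, among them Kmt5a, Ezh1, Setd6 and Kmt2d.

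**Figure D1:**
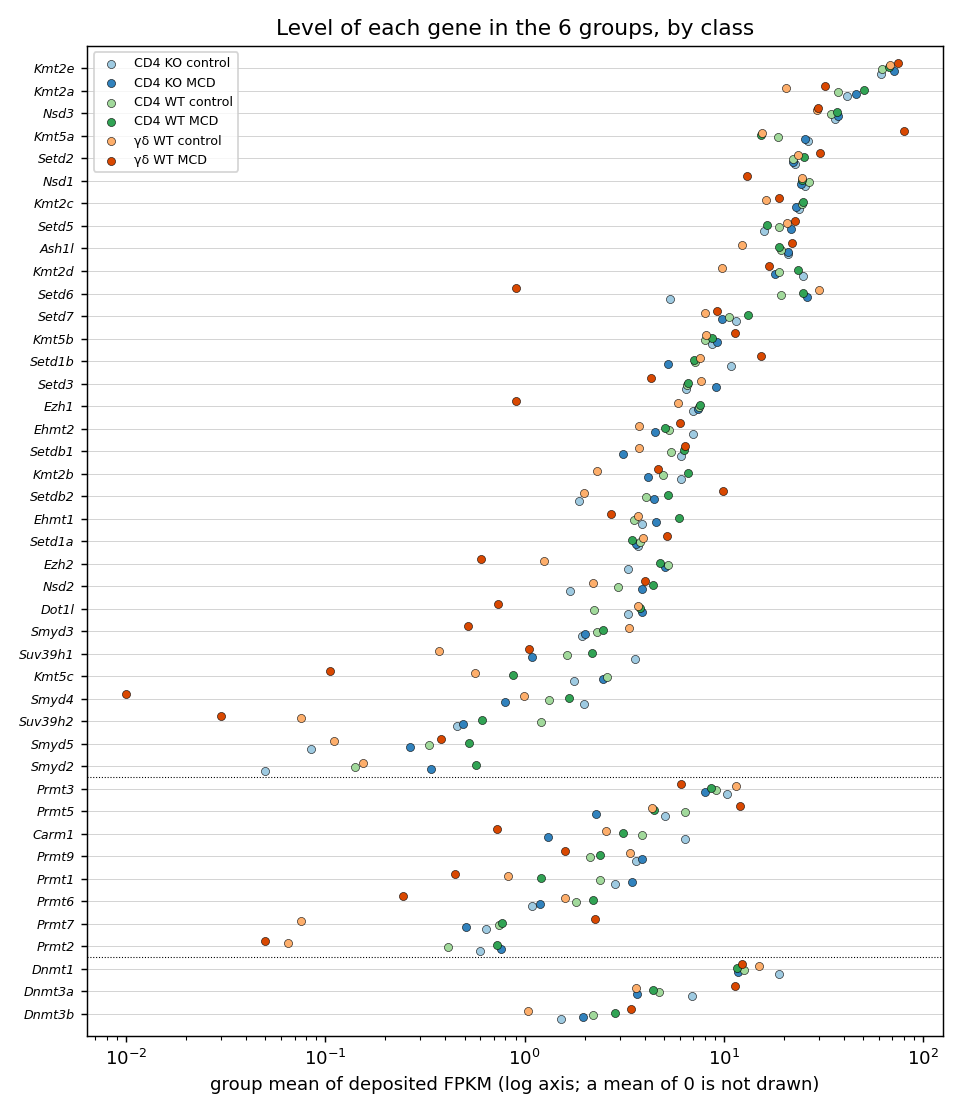
Group means of deposited FPKM on a log axis (n = 2 libraries per point) for each of the 43 genes, ordered by class and mean level, with 1 colour per group and dotted lines between the KMT and SETD, arginine and DNA methyltransferase classes. Kmt2e lies highest in the first class, the γδ MCD point lies far to the left for Setd6, Ezh1 and Smyd4, and far to the right for Kmt5a; Smyd2 was at 0 in γδ MCD and has no point there.

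When wild-type γδ and CD4+ T cells were compared on the MCD diet, 3 of the 43 genes passed an adjusted p of 0.05, or 6.98%, beside 2.65% of all 16218 genes. Kmt5a was higher in γδ T cells (1 of 43, beside 1.47% of all genes), and Ezh1 and Setd6 were lower (2 of 43, beside 1.18%). The test was the quasi-likelihood test of edgeR, adjusted by Benjamini-Hochberg over all genes tested, and every adjusted p below is from it unless another tool is named.

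Kmt5a (ENSMUSG00000049327.17, GRCm38 chromosome 5, 124439930 to 124462308, plus strand) encodes the enzyme that places the single methyl group on lysine 20 of histone H4, a mark of mitosis and chromosome compaction. It read 405 and 444 CPM in the γδ MCD libraries. In γδ control it read 69.6 and 106 CPM, in wild-type CD4+ MCD 72.0 and 98.3 CPM, in wild-type CD4+ control 84.9 and 125 CPM, in knockout control 141 and 161 CPM and in knockout MCD 152 and 138 CPM. Both γδ MCD libraries thus lay above all 10 others, with no overlap. The ratio of mean CPM to wild-type CD4+ MCD was 4.99, with a log2 fold change of 2.32 ± 0.35 (SE, n = 2 per group). This log2 fold change was 1.52 to 2.39 over the 10 alternatives other than leaving out 1 library. In the main fit the adjusted p was 0.00581. This call was lost without wild-type CD4+ MCD replicate 1 (adjusted p = 0.0636) and when only these 4 libraries were fitted (adjusted p = 0.148).

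Ezh1 (ENSMUSG00000006920.14, chromosome 11, 101191115 to 101226463, minus strand) encodes the catalytic subunit of the Polycomb repressive complex found mostly in resting cells. It read 5.37 and 8.06 CPM in γδ MCD, from 65 and 120 counts. Every other library held more: 57.5 and 36.0 CPM in γδ control, 44.6 and 73.1 CPM in wild-type CD4+ MCD, 76.9 and 41.4 CPM in wild-type CD4+ control, 79.4 and 32.3 CPM in knockout control and 45.5 and 71.9 CPM in knockout MCD. The mean in γδ MCD was 8.76-fold lower than in wild-type CD4+ MCD, and the log2 fold change was -3.11 ± 0.66 (SE; adjusted p = 0.0285). Without wild-type CD4+ MCD replicate 1 or 3 the adjusted p was 0.0581 and 0.132. The call was also lost with limma-voom (adjusted p = 0.111), with log2 FPKM at a pseudocount of 1 (0.0545) and when only the 4 libraries compared were fitted (0.16).

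Setd6 (ENSMUSG00000031671.11, chromosome 8, 95715881 to 95719010, plus strand) encodes a lysine methyltransferase known for acting on the NF-κB subunit RelA. It read 1.07 and 2.42 CPM in γδ MCD, from 13 and 36 counts, against 34.5 and 86.9 CPM in γδ control. In CD4+ T cells it read 42.4 and 56.5 CPM in wild-type MCD, 21.4 and 56.2 CPM in wild-type control, 67.3 and 39.0 CPM in knockout MCD, and 20.8 and 1.06 CPM in knockout control. One knockout control library was therefore as low as the γδ MCD libraries, and its partner was 19.7 times higher. Against wild-type CD4+ MCD the log2 fold change was -4.74 ± 1.17 (SE; adjusted p = 0.0483). The adjusted p was 0.0714 and 0.088 without wild-type CD4+ MCD replicate 1 and 3, 0.0994 with limma-voom and 0.16 when only the 4 libraries compared were fitted.

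**Figure D2:**
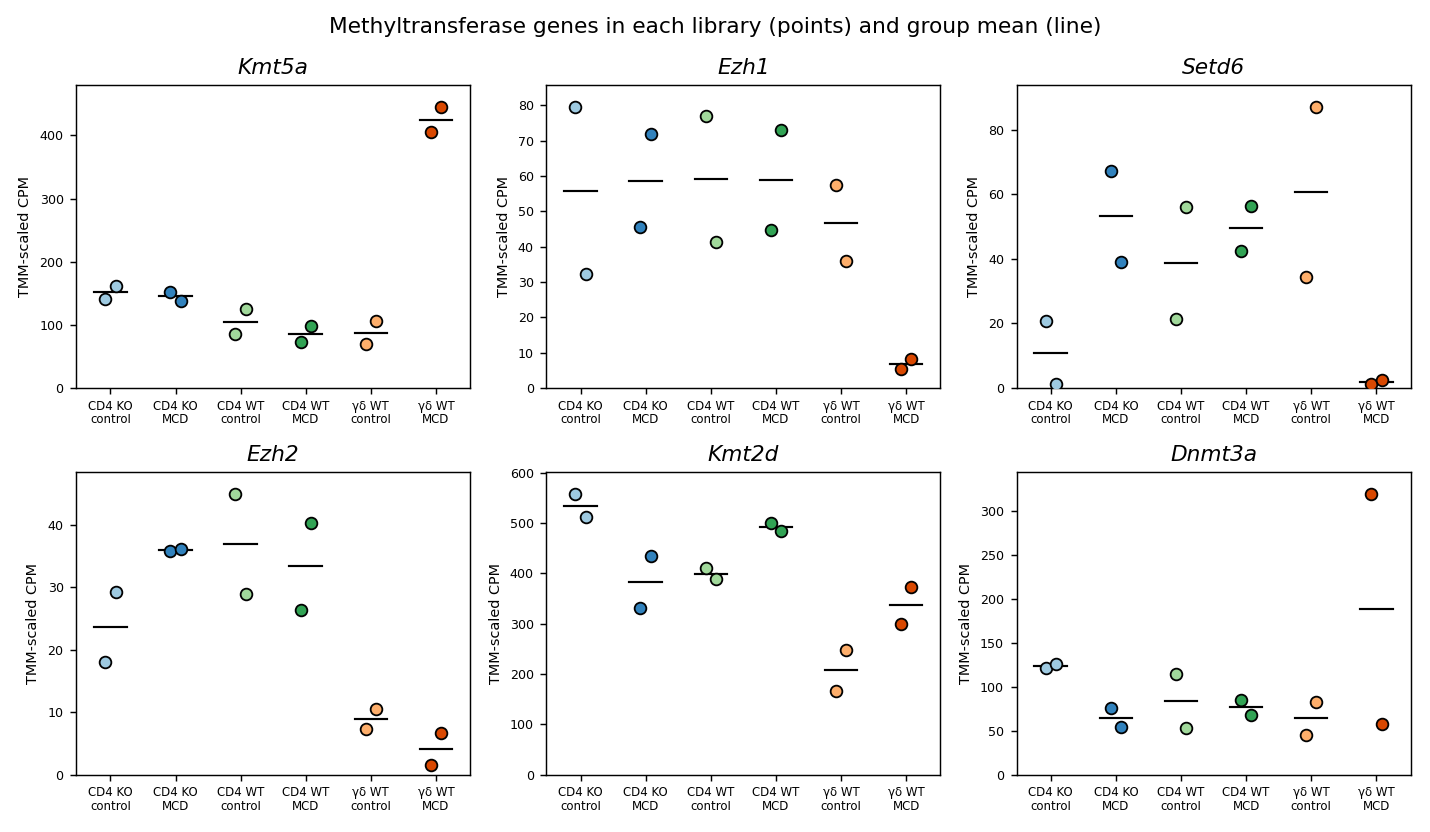
TMM-scaled CPM of 6 methyltransferase genes in each of the 12 libraries (points) with the mean of the 2 libraries of a group (line), on linear axes that start at 0. The γδ MCD points of Kmt5a (405 and 444 CPM) lie above and those of Ezh1 (5.37 and 8.06 CPM) below all others. Ezh2 is lower in every γδ than in every CD4+ library. Kmt2d is lower in γδ than in wild-type CD4+ libraries but overlaps knockout MCD. The γδ MCD points of Dnmt3a lie far apart.

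The promoters of the 3 genes called in this comparison are shown because these genes moved in opposite directions in the same libraries. Each stretch, from RefSeq on GRCm38.p6, is the 200 bases that end 51 bases before a RefSeq start, read 5′ to 3′ on the gene's strand, with CCAAT or its reverse complement in capitals, the core of the site for the factor NF-Y.
Kmt5a, chr5:124439680-124439879, plus strand: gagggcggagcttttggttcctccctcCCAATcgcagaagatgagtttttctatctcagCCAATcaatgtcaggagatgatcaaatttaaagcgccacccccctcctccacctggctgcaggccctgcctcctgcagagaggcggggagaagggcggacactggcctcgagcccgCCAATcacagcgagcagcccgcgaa
Ezh1, chr11:101226514-101226713, minus strand: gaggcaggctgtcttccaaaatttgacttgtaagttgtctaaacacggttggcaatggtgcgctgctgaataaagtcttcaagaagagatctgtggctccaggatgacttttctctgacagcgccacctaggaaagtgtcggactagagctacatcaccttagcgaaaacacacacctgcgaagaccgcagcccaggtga
Setd6, chr8:95715663-95715862, plus strand: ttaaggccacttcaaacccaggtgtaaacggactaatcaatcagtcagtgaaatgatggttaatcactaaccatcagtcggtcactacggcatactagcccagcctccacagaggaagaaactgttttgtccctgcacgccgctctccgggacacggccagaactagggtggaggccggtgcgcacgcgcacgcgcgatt
The Kmt5a stretch, at the outermost of its 3 RefSeq starts, holds 3 CCAAT matches and the others hold 0. CCAAT on either strand occurred in 28.4% of the 32851 such windows in the RefSeq table and in 40.9% of the 44 windows of the 34 methyltransferase genes matched by symbol. GGGCGG, the SP1 core, was in 24.6% of all windows and in 54.5% of the methyltransferase windows, 2 times in the Kmt5a stretch and 0 times in the Ezh1 and Setd6 stretches. TGACNNNGC, the core of the antioxidant response element, had 1 match in the Ezh1 stretch and was in 7.66% of all windows. TTTGGCGC and TTTCCCGC, forms of the E2F site, had 0 matches in the 3 stretches and were in 0.35% and 0.691% of all windows. The methyltransferase windows held a median of 16 CpG dinucleotides, against 4 over all windows. A match here is a description of the letters only.

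Some members missed the threshold in this comparison. Smyd4 had 1 and 0 counts in γδ MCD, against 109 and 210 in wild-type CD4+ MCD, a ratio of 205 with an exact 95% counting interval of 36.5 to 8125 (adjusted p = 0.0504), and was singled out after its values were seen, like Nsd1 and Smyd2. Nsd1, a lysine 36 enzyme, read 289 and 165 CPM in γδ MCD and 524 and 379 CPM in wild-type CD4+ MCD (log2 fold change -0.99 ± 0.29, SE; adjusted p = 0.0879). Smyd2 was at 0 in both γδ MCD libraries, which set against a floor of 3 counts per library made it at least 7.2-fold lower than the 1.62 CPM of wild-type CD4+ MCD, on 68 counts there in all (adjusted p = 0.182). Of the 43 genes, 28 had a negative and 15 a positive log2 fold change (34.9% positive, beside 41.8% of all genes; 38 and 5 when scaled by library totals), with a median of -0.56 beside -0.30 over all genes tested. At an unadjusted p under 0.05 there were 9 members (20.9%), beside 21.9% of all genes, which is the background share for both directions together. Of these, 8 were lower in γδ T cells (18.6%, beside 13.4% of all genes) and 1 higher (2.33%, beside 8.52%). In libraries that did not overlap, 20 of 43 differed (46.5%), the same as the 46.5% of all genes. By direction, 18 were lower (41.9%, beside 32%) and 2 higher (4.65%, beside 14.5%). Leaving out γδ MCD replicate 2 or 4 gave 7 and 12 called members, Kmt5a, Ezh1 and Setd6 among them, while 0 passed without wild-type CD4+ MCD replicate 1 and only Kmt5a without its replicate 3.

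On the control diet 0 of the 43 genes passed between the same cell types, beside 0.654% of all genes, and 3 had an unadjusted p under 0.05 (6.98%, against 10.9% of all genes). Those 3, Kmt2d, Ezh2 and Kmt2a, all had a lower mean in γδ T cells, and 15 of the 43 genes had a positive log2 fold change (34.9%, beside 47% of all genes), which fell to 3 with scaling by library totals. Each fit that left out 1 library repeated the filter, the scaling, the estimate of the spread and the adjustment. Over these 12 fits the log2 fold change of Kmt2d was -1.27 to -0.69. Kmt2d (ENSMUSG00000048154.17, chromosome 15, 98831669 to 98871204, minus strand), which methylates lysine 4 of histone H3 at enhancers, read 166 and 248 CPM in γδ control and 411 and 389 CPM in wild-type CD4+ control (log2 fold change -0.95 ± 0.27, SE; adjusted p = 0.184). Its highest γδ control library lay below both CD4+ libraries. Kmt2a, another lysine 4 enzyme, read 391 and 343 CPM against 706 and 620 CPM (log2 fold change -0.85 ± 0.38, SE; adjusted p = 0.442), again with no overlap. Libraries of the 2 cell types did not overlap in 20 of the 43 genes on this diet (46.5%), beside 45.9% of all genes. Of these, 18 were lower in γδ T cells (41.9%, beside 25.8%) and 2 higher (4.65%, beside 20.1%). The 2 smallest p-values among the genes that were higher belonged to Dot1l and Kmt2e. Dot1l read 18.2 and 50.2 CPM in γδ control and 25.9 and 15.4 CPM in CD4+ control, which overlap, and Kmt2e read 817 and 713 CPM against 672 and 694 CPM. The log2 fold change of Dot1l turned from 0.72 to -0.18 without γδ control replicate 7, and that of Kmt2e from 0.16 to -0.41 with library totals.

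Averaged over both diets, 4 of the 43 genes passed between wild-type γδ and CD4+ T cells (9.3%, beside 5.96% of all genes), 1 higher and 3 lower (beside 3.42% and 2.53% of all genes). At an unadjusted p under 0.05 there were 11 (25.6%, beside 26% of all genes), and 11 had a positive log2 fold change (25.6%, beside 43.1%), which fell to 1 with library totals. Kmt5a was higher, with a log2 fold change of 1.03 ± 0.24 (SE; adjusted p = 0.0247). Its 2 diets differed widely, with -0.26 on the control and 2.32 on the MCD diet, so the average joins unlike values. Ezh2, the lysine 27 enzyme of dividing cells (ENSMUSG00000029687.16, chromosome 6, 47530139 to 47595341, minus strand), was lower, at 7.32 and 10.5 CPM in γδ control and 1.57 and 6.58 CPM in γδ MCD. CD4+ T cells held 44.9 and 28.9 CPM in wild-type control, 26.4 and 40.3 CPM in wild-type MCD, 17.9 and 29.3 CPM in knockout control and 35.8 and 36.2 CPM in knockout MCD. All 4 γδ libraries thus lay below all 8 CD4+ libraries, and the log2 fold change against wild type was -2.52 ± 0.59 (SE; adjusted p = 0.0248). Kmt2d had 299 and 373 CPM in γδ MCD and 499 and 485 CPM in wild-type CD4+ MCD, and its averaged log2 fold change was -0.75 ± 0.19 (SE; adjusted p = 0.0338). Its lowest CD4+ library, of knockout MCD, read 332 CPM, so γδ and knockout CD4+ libraries overlapped. In Ezh1 it was -1.73 ± 0.44 (SE; adjusted p = 0.0369), which again joined a difference of -0.34 on the control diet with one of -3.11 on the MCD diet. Without wild-type CD4+ control replicate 2 or wild-type CD4+ MCD replicate 1 none of the 4 passed (adjusted p of 0.0533 to 0.15), without wild-type CD4+ MCD replicate 3 or γδ control replicate 6 only Kmt5a did, and without γδ control replicate 7 only Kmt2d did. Kmt2d alone was lost without wild-type CD4+ control replicate 3 (adjusted p = 0.0777).

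Of 32 proliferation genes, 28 had a negative averaged log2 fold change between γδ and CD4+ T cells, 3 passed the test (Kif11, Cenpf and Tyms, all lower in γδ, as were 2.53% of all genes), and the median was -1.53, beside -0.23 over all genes. The summed level of the list was 259 and 507 CPM in γδ MCD, 474 and 607 CPM in γδ control and 463 to 742 CPM in CD4+ libraries, so the cell types overlapped, and Cenpf, Ccnb1, Cdk1, Bub1, Cdc20 and Ube2c were at 0 in both γδ MCD libraries. Mki67, a marker of cycling cells, was not among those at 0. The part of proliferation in the Ezh2 and Kmt5a results was not tested.

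**Figure D3:**
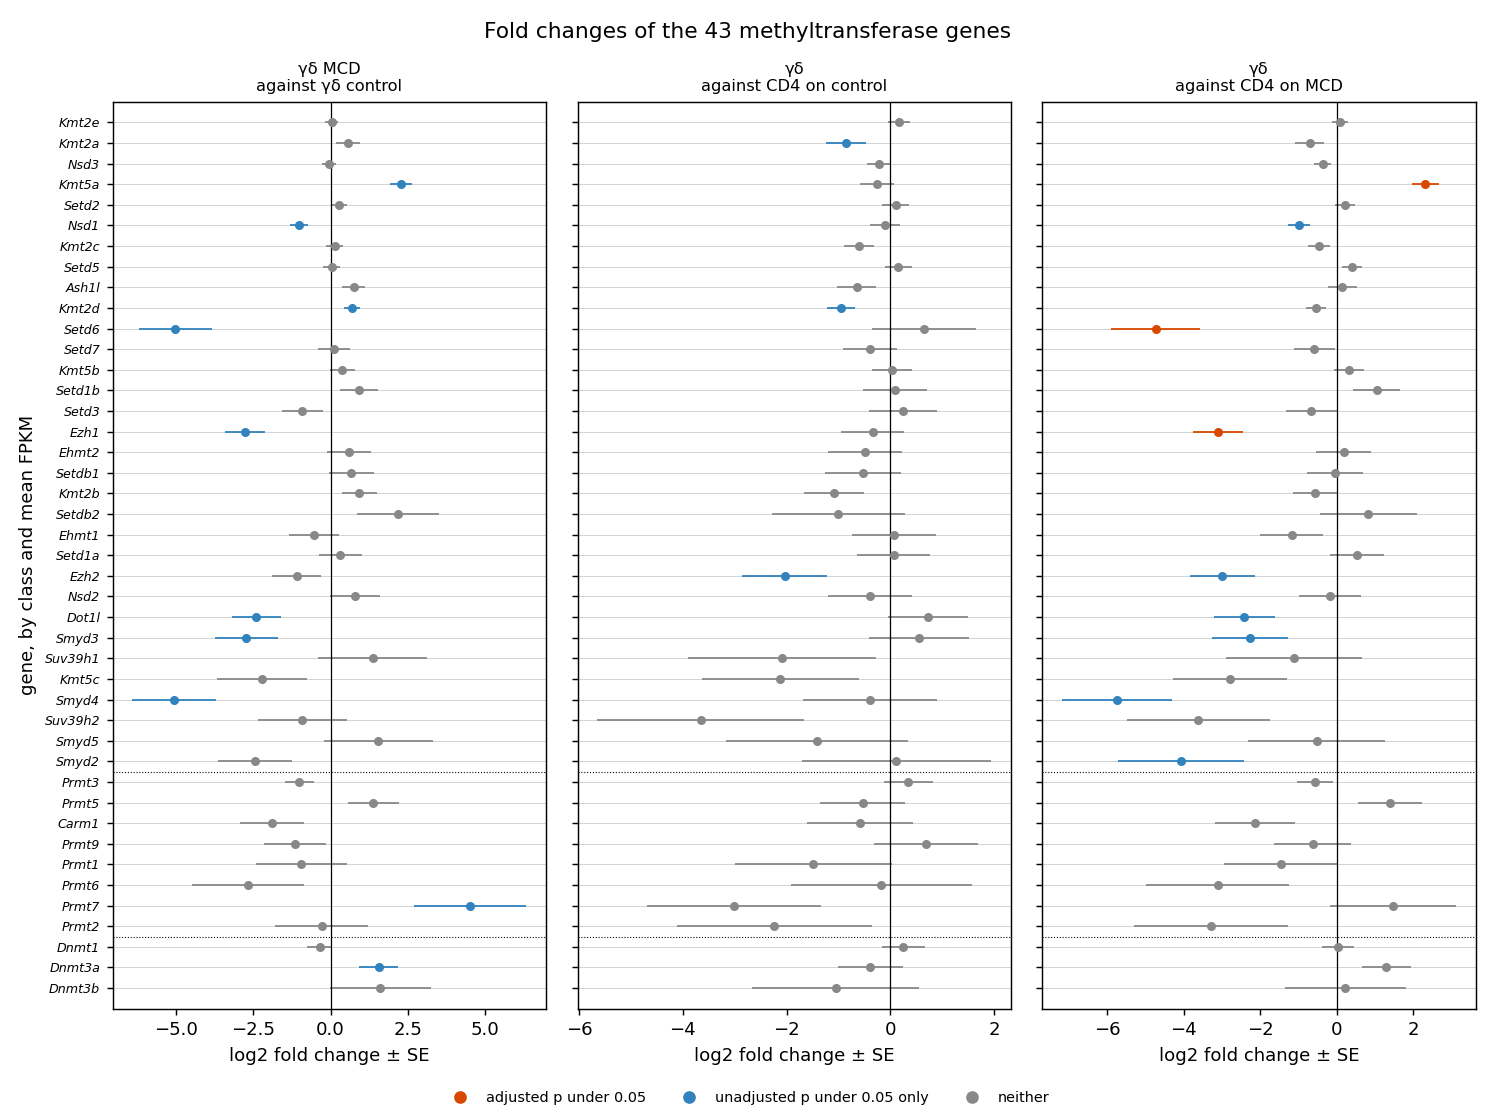
Log2 fold changes (points) with standard errors (bars) of the 43 genes for the diets within γδ T cells and for wild-type γδ against CD4+ T cells on each diet, ordered by class and mean FPKM, with a separate horizontal scale in each panel. Orange points passed an adjusted p of 0.05 (Kmt5a, Ezh1 and Setd6 on the MCD diet), blue points only an unadjusted one, and grey points neither.

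Within γδ T cells, the MCD diet changed none of the 43 genes at the threshold, and 0 of all 16218 genes passed either (0%). The same 3 genes had the smallest p-values. Kmt5a was 4.84 times higher on the MCD diet by mean CPM, with a log2 fold change of 2.27 ± 0.35 (SE), an unadjusted p of 1.8e-05 and an adjusted p of 0.0662, and ranked 3 of all genes by p. Ezh1 was 6.96-fold lower in mean CPM (log2 fold change -2.78 ± 0.65, SE) and Setd6 was 34.8-fold lower (-5.04 ± 1.18, SE), both at an adjusted p of 0.0936. Kmt2d, the other gene with a small p among those higher on the diet, had a log2 fold change of 0.70 ± 0.27 (SE; adjusted p = 0.219), and its γδ MCD libraries lay above its γδ control libraries but below those of wild-type CD4+ T cells on the same diet. These comparisons share the γδ MCD libraries with the comparison of cell types, so they are not separate evidence. DESeq2 called 7 members here: Kmt5a, Ezh1, Setd6, Dot1l, Smyd3, Smyd4 and Prmt7. Kmt5a passed in 11 of the 12 fits that left out 1 library, with γδ control replicate 6 as the exception, and 5 and 9 members passed without γδ MCD replicate 2 and 4.

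At an unadjusted p under 0.05, 10 of the 43 genes differed between the diets in γδ T cells (23.3%, beside 17.5% of all genes), 4 higher and 6 lower (beside 6.29% and 11.2%). A positive log2 fold change was seen in 23 genes (53.5%, beside 42.5%). Libraries of the diets did not overlap in 17 genes (39.5%, beside 33.2% of all genes), with 4 above and 13 below the control diet (beside 11.1% and 22.1%). By class, 19 of 32 KMT and SETD genes, 2 of 8 arginine and 2 of 3 DNA methyltransferases had a positive log2 fold change, with medians of 0.12, -0.98 and 1.55 beside -0.06 over all genes. In each of the 3 DNA methyltransferases the libraries of the diets overlapped. Dot1l, the lysine 79 enzyme, read 8.01 and 4.77 CPM in γδ MCD, below both γδ control libraries and below the 15.4 to 44.4 CPM of CD4+ libraries. Prmt7, singled out after its values were seen, had 140 and 241 counts in γδ MCD and 20 and 0 in γδ control (log2 fold change 4.52 ± 1.82, SE; adjusted p = 0.232).

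Arginine methyltransferases gave no call in any comparison with edgeR, while DESeq2 called Prmt7 between the diets in γδ T cells and Prmt2 in the average between cell types. Prmt1, the main source of asymmetric dimethylarginine, read 2.89 and 0.134 CPM in γδ MCD and 1.78 and 4.22 CPM in γδ control, against 2.55 to 18.4 CPM in the CD4+ libraries. Prmt5, the main source of symmetric dimethylarginine, read 18.4 and 77.9 CPM in γδ MCD and 10.02 and 26.7 CPM in γδ control, and 8.92 to 28.5 CPM in CD4+ T cells. Its γδ MCD replicate 4 was thus above all other libraries while replicate 2 lay among them. Carm1, a coactivator that methylates histone H3, read 4.21 and 2.82 CPM in γδ MCD, 20.7 and 5.85 CPM in γδ control and 14.6 and 16.9 CPM in wild-type CD4+ MCD. Both γδ MCD libraries were below all others, but the log2 fold change against wild-type CD4+ MCD had an adjusted p of 0.251.

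DNA methyltransferases also gave no call with edgeR or DESeq2 over all 12 libraries. Dnmt1, which copies methylation after replication, read 59.3 and 124 CPM in γδ MCD and 106 and 129 CPM in γδ control. In CD4+ T cells it read 117 and 81.0 CPM in wild-type control, 90.2 and 88.8 CPM in wild-type MCD, 183 and 117 CPM in knockout control and 95.5 and 90.7 CPM in knockout MCD, so the cell types overlapped. Dnmt3a, which sets new methylation, read 319 and 57.4 CPM in γδ MCD, 45.3 and 82.8 CPM in γδ control and 53.2 to 125 CPM in CD4+ libraries. The high mean of γδ MCD thus came from replicate 2 alone. Without it, the log2 fold change against wild-type CD4+ MCD went from 1.30 to -0.44, and without replicate 4 it was 2.05 and passed (adjusted p = 0.00407). Dnmt3b was at 0 in γδ MCD replicate 2 and at 35.3 CPM in replicate 4, against 5.63 and 5.75 CPM in γδ control and 6.11 to 17.9 CPM in CD4+ libraries.

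Such disagreement was common in the γδ MCD group. The ratio of its replicates, with 1 CPM added to each, was over 4 in 8 of the 43 genes: Setdb2, Dnmt3b, Suv39h1, Nsd2, Setd1b, Dnmt3a, Setdb1 and Prmt5. Over all genes tested it was over 4 in 25.4%. By members the next group was knockout control, with 7 (Suv39h1, Setd6, Carm1, Prmt9, Prmt1, Prmt7 and Prmt6), beside 9.7% of all genes. The other 4 groups had 0 to 2 members. Over all genes the next group was γδ control, with 13.9% and 2 members. Setdb2, a lysine 9 enzyme, read 78.3 CPM in γδ MCD replicate 2 and 0.941 CPM in replicate 4, and Setd1b, a lysine 4 enzyme, read 316 and 52.3 CPM. The high replicate was not the same one throughout: Dnmt3a, Setd1b and Setdb2 were higher in replicate 2, and Dnmt3b, Prmt5 and Nsd2 in replicate 4.

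**Figure D4:**
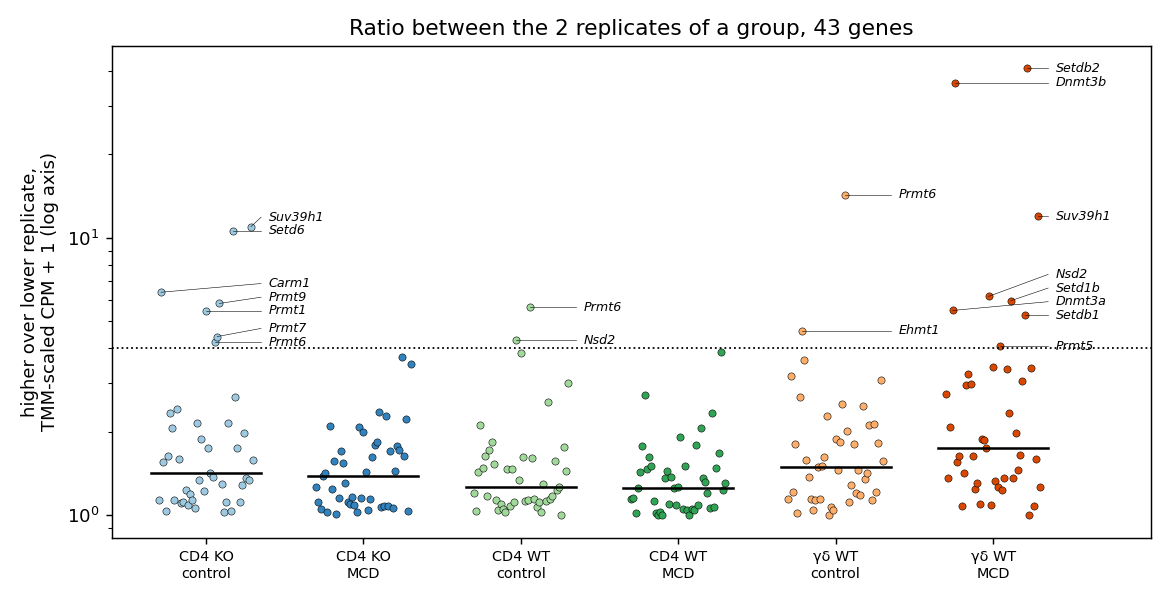
Ratio of the higher to the lower replicate of a group, from TMM-scaled CPM plus 1 on a log axis, for each of the 43 genes (points) with the median (line) and a dotted line at a ratio of 4. Named genes lie above 4: 8 in γδ MCD, 7 in knockout control, 2 each in wild-type CD4+ control and γδ control, and 0 in the remaining groups.

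In CD4+ T cells, the MCD diet changed 0 of the 43 genes in wild-type mice (beside 0% of all genes) and 0 in knockout mice (beside 0.037%). At an unadjusted p under 0.05 there were 0 members in wild type, against 2.13% of all genes, and 1 in knockout (2.33%, against 6.06%), and DESeq2 called 0 in both. In wild type the smallest p-values belonged to Kmt2d and Kmt2a among the higher genes and to Kmt5c and Kmt5a among the lower. With the MCD diet, Kmt2a read 829 and 934 CPM, with the control diet 706 and 620 CPM, and Kmt5c, which adds the later methyl groups to lysine 20 of histone H4, read 3.44 and 3.88 CPM against 13.2 and 8.63 CPM. Neither pair of groups overlapped, and the adjusted p was 1 for both. Libraries of the diets did not overlap in 13 members in wild type (30.2%), beside 33.9% of all genes. In knockout mice, Setd6 (log2 fold change 2.27 ± 1.04, SE) and Carm1 (-2.27 ± 1.06, SE) came first, each at an adjusted p of 0.787. Carm1 read 6.36 and 7.22 CPM in knockout MCD, but its 2 knockout control libraries read 8.24 and 57.9 CPM. Setd5, next among the higher genes there, read 440 and 407 CPM against 320 and 308 CPM, and Kmt2d 332 and 435 CPM against 557 and 511 CPM.

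Between knockout and wild-type CD4+ T cells, 0 of the 43 genes passed on the control diet (beside 0.0247% of all genes) and 0 on the MCD diet (beside 0%). At an unadjusted p under 0.05 there were 0 members on the control diet, beside 4.03% of all genes, and 1 on the MCD diet, Kmt5a (2.33%, beside 2.08%). It was 1.71 times higher in knockout by mean CPM (log2 fold change 0.77 ± 0.34, SE; adjusted p = 1), and both knockout libraries lay above both wild-type ones on each diet. Knockout lay above wild type without overlap in 9 members on the control diet (20.9%, beside 16.7% of all genes). On the MCD diet it did so in 7 (16.3%, beside 15.9%). Setdb1, a lysine 9 enzyme, was lowest by p on the MCD diet after Kmt2d, with 27.1 and 18.5 CPM in knockout and 43.5 and 46.2 CPM in wild type. Smyd5 on the control diet rested on 15 and 6 counts in knockout and 26 and 66 in wild type.

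Whether the diet acted differently in the cell types or genotypes was tested as an interaction, and 0 of the 43 genes passed in either test, beside 0% of all genes in both. The smallest p was that of Kmt5a for the diets across wild-type γδ and CD4+ T cells (difference of log2 fold changes 2.58 ± 0.48, SE; unadjusted p = 0.000121, adjusted p = 0.292). It passed without γδ MCD replicate 2, as 1 member, and without replicate 4, as 1 of 6. With 6 of 43 members at an unadjusted p under 0.05 (14%), the share stood beside 10.6% of all genes. For the genotypes it was 0 members, beside 4.33%. Averaged over genotypes, the diet in CD4+ T cells gave 0 calls among the members, beside 0.037% of all genes, and 0 members at an unadjusted p under 0.05, beside 6.08%.

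Further genes linked to methylation were counted in lists. Of 32 partner genes of these enzymes, such as subunits of the Polycomb and KMT2 complexes, 0 passed in any of the 11 comparisons, and neither did any of 23 histone demethylases. At an unadjusted p under 0.05 there were at most 2 partner genes and at most 5 demethylases in a comparison. Of 14 tested genes of the S-adenosylmethionine cycle 0 passed in any comparison and at most 3 had an unadjusted p under 0.05. Those 3 were in wild-type γδ against CD4+ T cells on the MCD diet, 1 higher and 2 lower, where 21.9% of all genes had one. Mat2a makes S-adenosylmethionine outside the liver. It read 184 and 159 CPM in γδ MCD and 159 and 178 CPM in γδ control, which overlap. Of 27 RNA methyltransferases, 1 passed on the MCD diet in γδ against wild-type CD4+ T cells: Trmt61a, which methylates transfer RNA, with 3 and 3 counts in γδ MCD against 203 and 486 in wild-type CD4+ MCD (adjusted p = 0.0119). Its γδ control libraries read 35.4 and 91.3 CPM, above both wild-type CD4+ groups. Of 25 histone acetyltransferases and deacetylases, Kat5, an acetyltransferase of histone H4, passed on the MCD diet with 1 and 1 counts in γδ T cells against 127 and 200 (adjusted p = 0.0451), and Ep300, the acetyltransferase p300, passed in the average over diets, higher in γδ T cells (adjusted p = 0.0267). The groups of Ep300 did not overlap on either diet, as was so for 45.9% of all genes on the control and 46.5% on the MCD diet.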

How the data were processed

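RNA of sorted T cells was sequenced by standard Illumina protocols. Per the submitters' processing notes, bcl2fastq, STAR, featureCounts and DESeq2 were used on mm10 (GRCm38), with no versions. The authors deposited raw counts per gene, used for every test, and FPKM values, used for levels between genes and as an alternative. Genes were kept by filterByExpr of edgeR 4.0.16 (minimum count 10, minimum total 15). All 12 libraries were fitted with 1 coefficient per group (TMM, quasi-likelihood, prior count 2, 2-sided, R 4.3.3). Intervals and floors cover counting error only. Alternatives were RLE and library-total scaling, DESeq2 1.42.0, limma-voom 3.58.1, no filter, a mean of 50 reads, log2 FPKM with pseudocounts of 1 and 0.1, no mitochondrial genes, only the groups compared, a block by replicate number in the knockout, and each library left out in turn. Members, lists and comparisons were chosen with earlier results of these data known. Named genes were those past the threshold, the 2 smallest p per direction in each 2-group comparison, the 3 highest in FPKM and 9 chosen enzymes, and up to 3 per other list. One list is not reported here. Positions came from GENCODE vM21.

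A search of the transcripts used blastn 2.17.0 (at least 95% identity over 100 bases, outside overlapping genes). It found stretches of Kmt5a (147 bases) and Kmt2d (455 bases) in annotated genes elsewhere, and of Setd3, Setdb1 and Prmt9. For Prmt9 there were 51 such genes. The counts of these 5 members are therefore less certain.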

Additional observations from a re-analysis of the deposited data

Results flagged for a closer look

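In 4 contrasts, genes were sought whose libraries did not overlap in one direction in one group and in the opposite direction in the other. None of the genes found passed the interaction test that compares the effects directly, and the shares were near those of all 16218 genes tested. Each interaction value below is a difference of log2 fold changes.

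Libraries of the diets lay in opposite orders in wild-type γδ and CD4+ T cells in 2 of the 43 genes (4.65%, beside 4.98% of all genes). Prmt9, an arginine methyltransferase, read 3.63 and 14.6 CPM in γδ MCD against 19.2 and 21.6 CPM in γδ control, and 14.6 and 13.8 CPM in wild-type CD4+ MCD against 11.8 and 13.6 CPM in its control (interaction -1.31, adjusted p = 0.801). Only 13.6 against 13.8 CPM thus parted the CD4+ groups of Prmt9. Smyd2 had 0 counts in both γδ MCD libraries against 7 and 10 in γδ control, and 31 and 37 in wild-type CD4+ MCD against 12 and 6 in its control. Its fitted interaction of -4.20 depends on the prior count and is no bound (adjusted p = 0.471). Between the cell types, the opposite directions on the diets belonged to 1 gene (2.33%, beside 4.29%), Prmt7, which was above wild-type CD4+ T cells in γδ MCD and below them in γδ control (interaction 4.49, adjusted p = 0.502).

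In CD4+ T cells the libraries of the diets lay in opposite orders in knockout and wild type in 3 genes (6.98%, beside 5.88% of all genes). Kmt2b, a lysine 4 enzyme, read 31.2 and 54.1 CPM in knockout MCD against 66.1 and 59 CPM in knockout control, and 67 and 65.8 CPM in wild-type MCD against 48.7 and 51.2 CPM in wild-type control (interaction -0.96). The interaction was -0.78 in Kmt2d and -1.16 in Setdb1. Libraries of the genotypes lay in opposite orders on the diets in 4 genes (9.3%, beside 6.54%). These were Kmt2b and Kmt2d with the same interactions, Setd5 (0.64) and Smyd4 (-1.62). In Setd5, knockout was above wild type on the MCD diet and below it on the control diet, and in the other 3 the order was the reverse. Each of these genotype interactions had an adjusted p of 1.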

How the results depend on the processing

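No call was made in γδ T cells between diets, but DESeq2 called 7 members, limma-voom 1, no filter 4 and log2 FPKM 1 with either pseudocount, and leaving out 1 library gave 0 to 9. Between γδ and CD4+ T cells on the control diet (0 called), library-total scaling and DESeq2 gave 1 each and leaving out 1 library 0 to 2. On the MCD diet (3 called), library totals gave 10, DESeq2 8, limma-voom 2 and log2 FPKM 2 with pseudocount 1 and 5 with 0.1, only the groups compared 0, and leaving out 1 library 0 to 12: 0 without wild-type CD4+ MCD replicate 1, 1 without replicate 3, and 7 and 12 without γδ MCD replicate 2 and 4. In the average over diets (4 called) these were 12 with library totals, 9 with DESeq2, 2 with log2 FPKM at either pseudocount and 0 to 12 without 1 library, with 0 without wild-type CD4+ control replicate 2 or MCD replicate 1 and 10 and 12 without γδ MCD replicate 2 and 4. For the interaction of diet and cell type (0 called), DESeq2 gave 5, no filter 2, and leaving out 1 library 0 to 6. The cause was not tested. A lone library was assumed to vary like the other groups.

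Library totals moved the median of all genes between γδ and CD4+ T cells on the MCD diet from -0.30 to -0.97 and the members higher and lower from 15 and 28 to 5 and 38. On the control diet they went from 15 and 28 to 3 and 40, and in the average from 11 and 32 to 1 and 42. In the γδ diet comparison the all-gene median went from -0.06 to -0.26 and the members from 23 and 20 to 19 and 24. Kmt5a lost its averaged call with library totals (log2 fold change 0.34, adjusted p = 0.367), and Ezh1 its own with limma-voom (-1.70, adjusted p = 0.102), among other losses. Of the 9 alternatives that kept every library, the averaged call held in 9 for Ezh2, 8 for Kmt5a, 7 for Kmt2d and 6 for Ezh1.

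Of 703 values of single genes, 631 kept their direction and side of the threshold and 4 reversed: Kmt5a for the diet in wild-type CD4+ T cells without control replicate 3 (0.0064; -0.55 without replicate 2), Dot1l between cell types on the control diet without γδ control replicate 7 (-0.18; 1.27 without replicate 6), Kmt2e there with library totals (-0.41), and Dnmt3a between cell types on the MCD diet without γδ MCD replicate 2 (-0.44; 2.05 without replicate 4). The 4 CD4+ comparisons of diet and genotype gave 0 members under every alternative, those without 1 library included. With the replicate block, the pairing by number gave 0 members in the knockout diet comparison, as without it. Deviations of same-numbered knockout libraries had r = -0.00083 over 16218 genes, so no shared shift was seen over all genes together. A shift shared by only some genes could go unseen in this value. The value cannot settle whether the numbers pair the libraries, which the labels do not say.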
